A study of Mus musculus with 12 samples.

Results

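The 10 genes described here are the ligands and receptors of the vascular endothelial growth factor (VEGF) family together with angiopoietin-2. They were chosen by symbol, as Vegfa, Vegfb, Vegfc, Pgf, Flt1, Kdr, Flt4, Nrp1, Nrp2 and Angpt2, from 52636 genes in a table of read counts from mouse skin, and all 10 passed the filter on low counts that left 17993 genes for testing. Their counts were measured by RNA sequencing of whole back skin of female BALB/c mice, in 12 libraries, 3 in each of 4 groups. The groups were control, control+RAPA, LL37 and LL37+RAPA. LL37, the active peptide of human cathelicidin, is given into the skin of 8-week-old mice over 2 days to make a rosacea-like inflammation, and control mice received vehicle in the same way. RAPA is rapamycin, an inhibitor of the kinase complex mTORC1, given to BALB/c mice at 4 mg/kg per day. The route named for BALB/c mice is intraperitoneal injection, with no statement for these samples in particular. The series compares LL37 with control skin, and LL37 skin with and without RAPA. In bulk skin, fewer cells of a type and less RNA per cell cannot be told apart.

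VEGF ligands are secreted proteins, and VEGFA among them drives the growth and the leakiness of vessels. VEGFA signals mainly through VEGFR2, the product of Kdr, while VEGFA, VEGFB and PlGF (from Pgf) also bind VEGFR1, the product of Flt1, which has a soluble form that traps ligand. VEGFC acts on VEGFR3, the product of Flt4, in lymphatic vessels, the neuropilins Nrp1 and Nrp2 are co-receptors that also bind class 3 semaphorins, and ANGPT2 is made by activated endothelium and competes with ANGPT1 for the receptor TIE2, the product of Tek.

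Among the ligands, Vegfa and Pgf were higher and Vegfb was lower in LL37 than in control skin, and in LL37+RAPA than LL37 skin Vegfa and Pgf were lower and Vegfb was higher. The sequences before the transcription start of Vegfa and Vegfb are shown because these ligands moved in opposite directions. Both are from RefSeq on the mouse build GRCm38.p6, on the minus strand, and are written 5' to 3' and end at the base before the start. Capitals mark GCGTG, the core of a hypoxia response element, and GGGCGG, a motif of Sp1, on either strand (adjacent copies run together).
Vegfa, chr17:46032378-46032627: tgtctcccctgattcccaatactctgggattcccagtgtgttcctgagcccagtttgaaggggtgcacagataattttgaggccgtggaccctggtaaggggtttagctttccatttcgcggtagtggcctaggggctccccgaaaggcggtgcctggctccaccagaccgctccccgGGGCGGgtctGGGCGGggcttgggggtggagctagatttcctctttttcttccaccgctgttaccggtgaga
Vegfb, chr19:6987652-6987901: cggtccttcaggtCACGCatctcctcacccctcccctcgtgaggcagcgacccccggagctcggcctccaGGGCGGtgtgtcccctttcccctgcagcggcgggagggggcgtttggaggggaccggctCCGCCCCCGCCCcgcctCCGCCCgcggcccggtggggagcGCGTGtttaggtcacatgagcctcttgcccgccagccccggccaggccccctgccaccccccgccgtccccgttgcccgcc
This Vegfa window held no match to GCGTG or to the other core searched, ACGTG, and had GGGCGG at 2 places. The well known hypoxia element of this gene lies farther upstream, outside this window. The Vegfb window had GCGTG at 2 places, with the leftmost base 237 and 81 bases before the start, and GGGCGG at 4 places. RefSeq gave 11 promoters for 9 of the 10 genes, all but Angpt2, with 2 each for Vegfa and Pgf. The Flt4 window and both Pgf windows lie wholly in exons of their own gene (250 of 250 bases). The other Vegfa window, chr17:46025164-46025413, lies inside the gene, with 218 of its 250 bases in exons of Vegfa, and held GCGTG and ACGTG once each, with the leftmost base 218 and 211 bases before its start, and GGGCGG once. In windows of 250 bases before the start, ACGTG or GCGTG was present in 7 of the 11 and in 38.6% of all 32851 promoters, and GGGCGG in 10 of the 11 and in 32.7% of all promoters. The AP-1 motif TGANTCA was present in 0 of the 11 and in 6.7% of all. The GC content of the 11 windows was 59.2% to 76.4%, and that of all promoters was not measured. A match describes letters and is not a binding site.

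**Figure D1:**
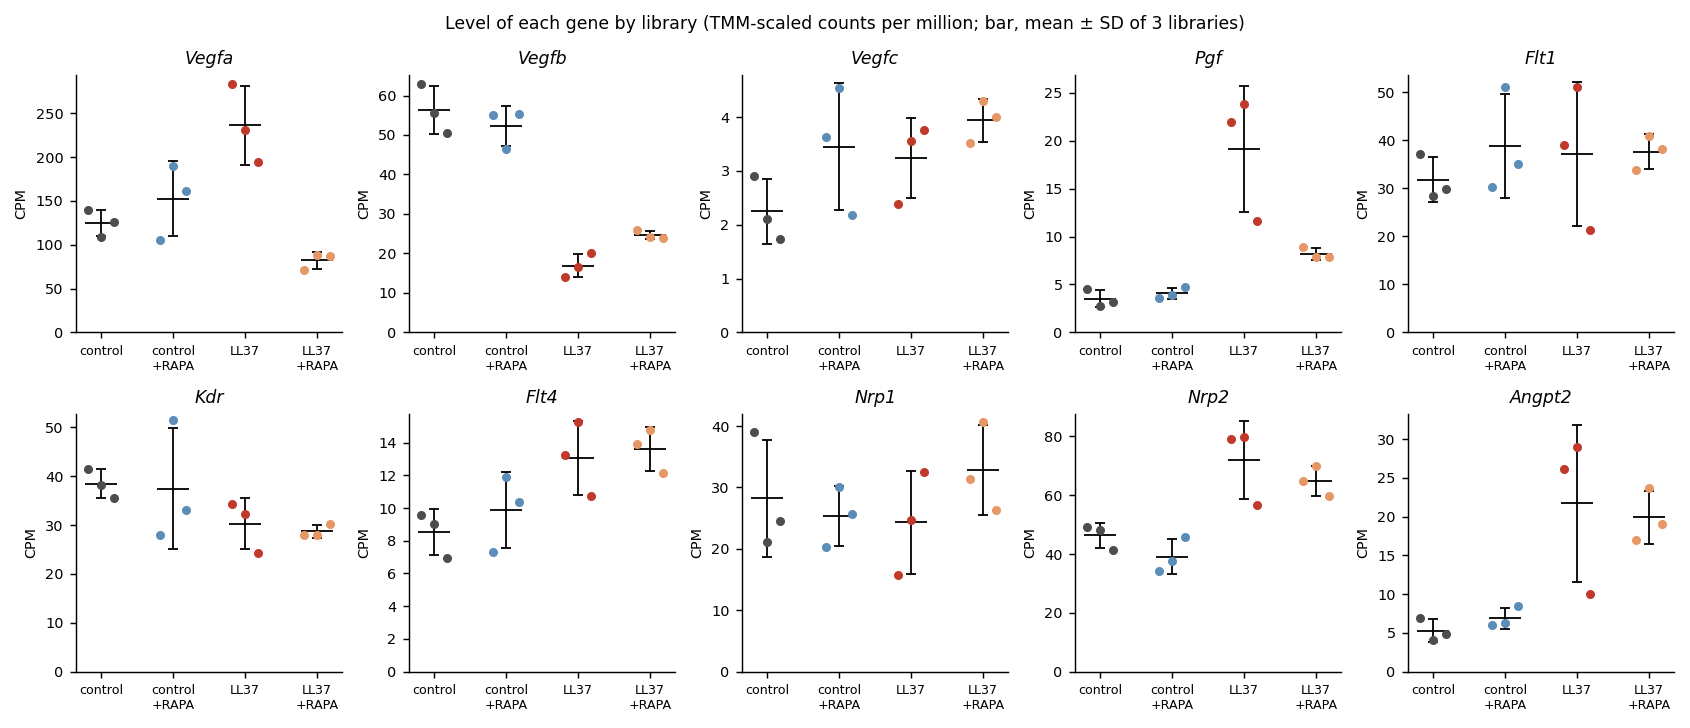
Each panel shows 1 gene, with CPM on the y axis and the 4 groups on the x axis. Points are the 3 libraries of a group in order of replicate number, and the bar is their mean ± SD. Vegfa, Pgf, Flt4, Nrp2 and Angpt2 of all LL37 libraries sit above all control libraries, and Vegfb and Kdr below them.

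Vegfa is the main ligand for vessel growth. Levels are in CPM, that is, counts per 1000000 counts of the library after TMM scaling, and replicates are given in the order 1, 2 and 3. Its gene lies on chromosome 17 from 46016993 to 46032369 (GRCm38, minus strand), with 13 annotated transcripts, and gene counts do not separate its isoforms. The level was 139, 109 and 126 CPM in control, 106, 190.1 and 162 CPM in control+RAPA, 284, 231 and 194 CPM in LL37 and 71.1, 88.6 and 86.7 CPM in LL37+RAPA libraries. All LL37 libraries were above every other library, and all LL37+RAPA libraries were below every other library. Vegfa was 1.89-fold higher in LL37 than in control skin (log2 fold change 0.92 ± 0.20 SE, edgeR adjusted p = 0.00364). It was 2.88-fold higher in LL37 than in LL37+RAPA skin (1.52 ± 0.21, edgeR adjusted p = 0.00152). LL37+RAPA skin held less Vegfa than control+RAPA skin, by 1.86-fold (edgeR adjusted p = 0.0103). Against control, the log2 difference of LL37+RAPA was -0.60, with a 95% interval of -1.05 to -0.16 and an edgeR adjusted p of 0.0727, so that it did not pass the threshold of 0.05, which it passed in 3 of 20 alternatives (DESeq2, a fit of those groups only, and the fit without control+RAPA replicate 1, with an adjusted p down to 0.014). The effect of RAPA differed between LL37 and control skin by 1.81 ± 0.29 on the log2 scale (LL37 minus LL37+RAPA, less control minus control+RAPA, edgeR adjusted p = 0.0198), with RAPA lowering Vegfa in LL37 skin and a log2 difference of 0.29 for control+RAPA minus control. This difference of effects lost its call without control replicate 1, LL37+RAPA replicate 1 or control+RAPA replicate 3, where the adjusted p reached 0.0687.

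Pgf encodes placental growth factor, a ligand of VEGFR1 that is low in resting tissue. Its gene lies on chromosome 12 from 85166635 to 85177790 (minus strand). The level was 4.48, 2.77 and 3.21 CPM in control, 3.58, 3.95 and 4.72 CPM in control+RAPA, 22.0, 23.8 and 11.6 CPM in LL37 and 8.92, 7.82 and 7.84 CPM in LL37+RAPA libraries. LL37+RAPA libraries lay between the control and the LL37 libraries, with no overlap on either side. Pgf was 5.48-fold higher in LL37 than in control skin (log2 fold change 2.45 ± 0.27 SE, edgeR adjusted p = 4.68e-05). It was 2.33-fold higher in LL37 than in LL37+RAPA skin (1.22 ± 0.26, edgeR adjusted p = 0.0071), and 2.35-fold higher in LL37+RAPA than in control skin (edgeR adjusted p = 0.00999). The difference of the RAPA effects was 1.45 with an adjusted p of 0.0576 in edgeR, which did not pass. Against control+RAPA, LL37+RAPA skin held 2.01-fold more Pgf (edgeR adjusted p = 0.0215), a call kept in 16 of 20 alternatives and lost without LL37+RAPA replicate 1 or 2 or control+RAPA replicate 1 or 2 (adjusted p up to 0.0795). Of the 3 LL37 libraries, replicate 3 was the lowest for Pgf.

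Vegfb, a ligand of VEGFR1 that is abundant in heart and skeletal muscle, was the only one of the 10 genes called lower in LL37 than in control skin. Its gene lies on chromosome 19 from 6982473 to 6987651 (minus strand). The level was 62.9, 55.5 and 50.6 CPM in control, 55.1, 46.5 and 55.4 CPM in control+RAPA, 14.2, 16.5 and 20.0 CPM in LL37 and 25.8, 24.3 and 24.0 CPM in LL37+RAPA libraries. The 3 groups of control (with and without RAPA together), LL37+RAPA and LL37 did not overlap. Vegfb was 3.33-fold lower in LL37 than in control skin (log2 fold change -1.73 ± 0.14 SE, edgeR adjusted p = 4.41e-06) and 2.28-fold lower in LL37+RAPA than in control skin (edgeR adjusted p = 0.000143). It was 1.46-fold lower in LL37 than in LL37+RAPA skin (-0.55 ± 0.13, edgeR adjusted p = 0.0143), a call that was lost in 3 of 20 alternatives, namely a fit of those groups only and the fits without LL37 replicate 1 or LL37+RAPA replicate 1 (adjusted p up to 0.0618).

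Vegfc, the ligand for lymphatic vessels, was the ligand with the lowest mean CPM in each group and was called in none of the 6 edgeR contrasts. The level was 2.91, 2.10 and 1.74 CPM in control, 3.63, 4.54 and 2.19 CPM in control+RAPA, 2.39, 3.55 and 3.77 CPM in LL37 and 3.51, 4.30 and 4.01 CPM in LL37+RAPA libraries. Counts were between 33 and 105 per library. Per kilobase of merged exons Vegfc and Pgf were both at 1.41 CPM per kb in control+RAPA skin, and Vegfc was the lowest ligand in the other 3 groups. The log2 difference from control was 0.53 in LL37 (95% interval -0.13 to 1.18, edgeR adjusted p = 0.179) and 0.81 in LL37+RAPA skin (95% interval 0.17 to 1.45, edgeR adjusted p = 0.0944). The second was called under scaling by library size only (edgeR adjusted p = 0.0487).

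Per kilobase of merged exons, Vegfb and Vegfa had the highest levels of the 10 genes in control skin, at 35.1 ± 3.84 and 29.1 ± 3.55 CPM per kb (SD, n = 3), and their libraries overlapped. In LL37 skin Vegfa was at 55.1 ± 10.5 and Vegfb at 10.5 ± 1.84 CPM per kb, with no overlap, and Pgf was next at 6.59 ± 2.27. In LL37+RAPA skin these 3 ligands were at 19.2 ± 2.24, 15.4 ± 0.602 and 2.82 ± 0.216 CPM per kb. In control skin the receptors followed the leading ligands at a distance, from 4.25 ± 0.327 CPM per kb for Kdr through 3.91 for Nrp2 and 2.89 for Nrp1 to 2.36 for Flt1, each overlapping its neighbour in that order. Angpt2 at 1.44, Pgf at 1.20, Flt4 at 1.04 and Vegfc at 0.919 CPM per kb formed a lower set, again with overlapping neighbours and apart from Flt1.

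In LL37 against control skin, 5 of the 10 genes were called higher, where 21.0% of all genes tested were called higher, and 1 of 10 was called lower, where 21.6% were. In LL37 against LL37+RAPA skin, 2 of 10 were called higher and 1 lower, beside 11.8% and 12.4% of all genes. In LL37+RAPA against control skin, 3 of 10 were called higher and 1 lower, beside 5.03% and 9.01% of all genes. In LL37+RAPA against control+RAPA skin, 3 of 10 were called higher (Pgf, Nrp2 and Angpt2) and 2 lower (Vegfa and Vegfb), beside 8.20% and 10.4% of all genes. In control+RAPA against control skin, 0 of 10 were called by edgeR, beside 0% of all genes, where 1556 genes had an unadjusted p under 0.05, none of the 10 among them, and DESeq2 called 109 genes but 0 of the 10. For the difference of the RAPA effects, 1 of 10 was called, beside 3.28% of all genes. CPM did not overlap between LL37 and control libraries for 7 of the 10 genes and for 49.7% of all genes, and between LL37 and LL37+RAPA libraries for 3 of 10 and for 38.3% of all genes. Several of these comparisons share the LL37 or the control libraries.

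**Figure D2:**
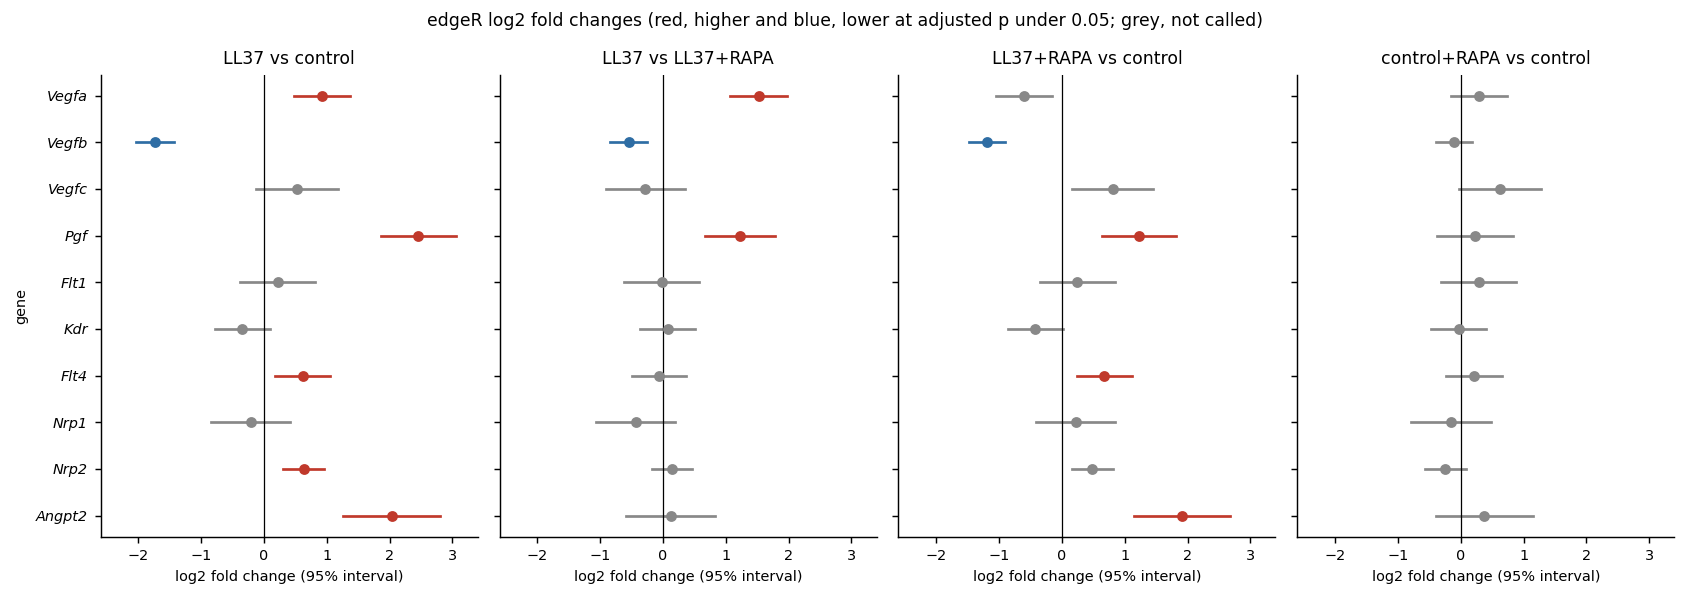
Log2 fold changes from edgeR (x axis) of the 10 genes (y axis) in 4 comparisons, with 95% intervals as lines. Red and blue mark genes called higher and lower at an adjusted p under 0.05 and grey the others. Pgf and Angpt2 have the highest values in LL37 against control skin, at 2.45 and 2.03, while the intervals of the receptors Kdr and Flt1 include 0 in all 4 panels.

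Of the receptors, Flt4 was called higher in LL37 skin and neither Kdr nor Flt1 passed. Kdr, the main signalling receptor of VEGFA, was at 41.5, 38.2 and 35.6 CPM in control, 28.0, 51.4 and 33.0 CPM in control+RAPA, 34.3, 32.2 and 24.4 CPM in LL37 and 27.9, 28.0 and 30.2 CPM in LL37+RAPA libraries. Every LL37 and LL37+RAPA library was below every control library, but the log2 differences from control of -0.34 in LL37 (95% interval -0.78 to 0.09, edgeR adjusted p = 0.186) and -0.42 in LL37+RAPA skin (95% interval -0.85 to 0.01, edgeR adjusted p = 0.196) did not pass. The second was called in a fit of those groups only (edgeR adjusted p = 0.0186). Flt1 was at 37.2, 28.5 and 29.8 CPM in control, 30.4, 51.0 and 35.1 CPM in control+RAPA, 39.1, 51.1 and 21.3 CPM in LL37 and 33.8, 41.0 and 38.1 CPM in LL37+RAPA libraries. The LL37 libraries spanned all other libraries, with replicate 3 the lowest of all 12. Flt1 differed from control by 0.22 on the log2 scale in LL37 skin (95% interval -0.38 to 0.82, edgeR adjusted p = 0.546), and by 0.53 without LL37 replicate 3 (edgeR adjusted p = 0.0496). Gene counts do not separate the soluble from the membrane form of Flt1.

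Flt4, the receptor of lymphatic endothelium, was at 9.60, 9.02 and 6.95 CPM in control, 7.32, 11.9 and 10.4 CPM in control+RAPA, 13.2, 15.3 and 10.7 CPM in LL37 and 13.9, 14.8 and 12.1 CPM in LL37+RAPA libraries. LL37 and LL37+RAPA libraries overlapped each other and lay above all control libraries. Flt4 was 1.53-fold higher than control in LL37 (log2 fold change 0.61 ± 0.20 SE, edgeR adjusted p = 0.029) and 1.60-fold higher in LL37+RAPA skin (0.67 ± 0.20, edgeR adjusted p = 0.0453). The first call was kept in 15 of 20 alternatives and the second in 12 of 20. The losses of the first came in a fit of those groups only and without control replicate 2, control replicate 3, LL37 replicate 1 or LL37 replicate 2 (adjusted p up to 0.105), and those of the second came without any of the 3 control or the 3 LL37+RAPA libraries, LL37 replicate 1 or control+RAPA replicate 3 (adjusted p up to 0.156). Against control+RAPA, Flt4 in LL37+RAPA skin stood at 0.46 (95% interval 0.03 to 0.90, edgeR adjusted p = 0.14) and was not called. It was called there in 1 of 20 alternatives, scaling by library size only (edgeR adjusted p = 0.0403). LL37 and LL37+RAPA skin differed by -0.06 on the log2 scale (95% interval -0.49 to 0.38).

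Nrp2, the co-receptor of VEGFC and of VEGFA, was higher in LL37 skin and Nrp1 was not called. Nrp2 was at 49.2, 48.3 and 41.5 CPM in control, 34.1, 37.5 and 45.7 CPM in control+RAPA, 79.2, 79.7 and 56.6 CPM in LL37 and 65.0, 69.8 and 59.7 CPM in LL37+RAPA libraries. All libraries from LL37-injected mice were above all others. Nrp2 was 1.55-fold higher in LL37 than in control skin (log2 fold change 0.63 ± 0.15 SE, edgeR adjusted p = 0.00531), and 1.66-fold higher in LL37+RAPA than in control+RAPA skin (edgeR adjusted p = 0.00559). Against control, LL37+RAPA stood at 0.49 with an edgeR adjusted p of 0.0501, and was called in 9 of 20 alternatives, among them the fits without LL37 replicate 2, LL37 replicate 3 or control+RAPA replicate 3 (adjusted p from 0.00907 to 0.179 over the 20). LL37 and LL37+RAPA differed by 0.15 (95% interval -0.18 to 0.47). Nrp1 ranged from 15.7 to 40.7 CPM over the 12 libraries with all groups overlapping, and its log2 difference from control was -0.21 in LL37 (95% interval -0.84 to 0.42) and 0.22 in LL37+RAPA skin (95% interval -0.41 to 0.84). An exon of Nrp1 shares 80 bases with the microRNA gene Mir1903 on the same strand.

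Of 12 class 3 semaphorins and plexins, listed for comparison and not all shown to act through a neuropilin, 2 were higher and 4 lower in LL37 than in control skin (median log2 fold change -0.34, all genes -0.00). Sema3b, a secreted class 3 semaphorin, was at 53.2 ± 1.85 CPM in control and 16.1 ± 5.73 CPM in LL37 skin (SD, n = 3), 3.29-fold lower (edgeR adjusted p = 6.02e-05). Sema3c was lower as well, by 0.76 on the log2 scale (edgeR adjusted p = 0.00131). In LL37 against LL37+RAPA skin, 1 was higher and 3 were lower, with Sema3b at -1.19 and Sema3e at -1.05.

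Angpt2, which loosens vessels by acting against ANGPT1, rose in LL37 skin and was not called between LL37 and LL37+RAPA skin. Its gene lies on chromosome 8 from 18690263 to 18741562 (minus strand), within Mcph1 on the other strand, with 0 exon bases shared. The level was 6.90, 4.10 and 4.90 CPM in control, 5.96, 6.22 and 8.46 CPM in control+RAPA, 26.1, 28.9 and 10.1 CPM in LL37 and 17.0, 23.6 and 19.0 CPM in LL37+RAPA libraries. All 6 libraries from LL37-injected mice were above the other 6, and LL37 replicate 3 was the lowest of those 6. Angpt2 was 4.08-fold higher than control in LL37 (log2 fold change 2.03 ± 0.35 SE, edgeR adjusted p = 0.000832) and 3.75-fold higher in LL37+RAPA skin (1.91 ± 0.35, edgeR adjusted p = 0.00352). LL37 and LL37+RAPA differed by 0.12 (95% interval -0.60 to 0.84, edgeR adjusted p = 0.817), an interval that includes changes of over 1.5-fold in either direction.

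The partners of Angpt2 moved otherwise. Tek, its receptor, was at 31.1 ± 4.01 CPM in control, 10.1 ± 2.37 CPM in LL37 and 25.8 ± 2.56 CPM in LL37+RAPA skin (SD, n = 3), 3.09-fold lower in LL37 than in control skin (edgeR adjusted p = 5.81e-05) and 2.56-fold lower than in LL37+RAPA skin (edgeR adjusted p = 0.00156). Angpt1 was at 3.95 ± 0.451, 3.11 ± 1.3 and 7.08 ± 1.53 CPM in these groups, 2.29-fold lower in LL37 than in LL37+RAPA skin (edgeR adjusted p = 0.0129). Of the 5 other genes of the family (Vegfd, Angpt1, Angpt4, Tek and Tie1), 1 was lower in LL37 than in control skin (median -0.56) and 4, all but Vegfd, were lower than in LL37+RAPA skin (median -1.20, all genes -0.00). Vegfd, a ligand of the lymphatic receptor, stood at -0.56 (edgeR adjusted p = 0.125) and -0.77 (edgeR adjusted p = 0.061). The ratio of Angpt2 to Angpt1 counts was 5.05-fold higher in LL37 than in control skin, 2.35-fold higher in LL37 than in LL37+RAPA and 2.15-fold higher in LL37+RAPA than in control skin. The libraries did not overlap in any of the 3 comparisons, and the exact permutation test (two-sided) gave p = 0.1 in each, below which 3 against 3 libraries cannot go.

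Endothelium expresses the receptors and Angpt2, so they were also set against the summed counts of 21 blood endothelium genes. This is not a scale per cell of origin. Flt4 is the receptor of lymphatic endothelium, and which cells made Nrp1 and Nrp2 cannot be told in bulk skin. The ratios also move with the summed level of the list. The summed level was 707 to 912 CPM in control, 739 to 1131 in control+RAPA, 651 to 895 in LL37 and 1048 to 1231 in LL37+RAPA libraries, so that all LL37+RAPA libraries lay above all control and LL37 libraries. Of the 21 genes, 2 were higher and 7 lower in LL37 than in control skin (median -0.16), and 0 were higher and 10 lower than in LL37+RAPA skin (median -0.54). The general markers Pecam1 (0.08) and Cdh5 (0.25) were not called against control in LL37 skin. Aplnr, the apelin receptor, was 2.86-fold higher (edgeR adjusted p = 0.000965), while Tek was among the lower genes. Whether the endothelial share contributes to the receptor values was not tested beyond these ratios.

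Kdr had 45.5, 54.1 and 45.4 counts per 1000 endothelial counts in control, 52.8, 36.0 and 37.2 in LL37 and 26.6, 24.4 and 24.6 in LL37+RAPA libraries. Relative to the endothelial list, LL37+RAPA libraries were below all others for Kdr, 1.91-fold lower than control and 1.64-fold lower than LL37 (exact permutation p = 0.1 for each, the smallest possible). As CPM, Kdr differed between LL37 and LL37+RAPA by 0.08 on the log2 scale (edgeR adjusted p = 0.809). The list itself had a mean of 734 CPM in LL37 and 1142 CPM in LL37+RAPA skin. Nrp2 had 54.0, 68.3 and 52.9 counts per 1000 in control, 121.8, 89.1 and 86.3 in LL37 and 62.0, 60.8 and 48.6 in LL37+RAPA libraries. LL37 was 1.69-fold above control and 1.72-fold above LL37+RAPA (exact permutation p = 0.1 for each), and LL37+RAPA overlapped control. Flt4 was 1.68-fold above control and 1.5-fold above LL37+RAPA in LL37 skin on this scale (exact permutation p = 0.1 for each), although its CPM did not differ between LL37 and LL37+RAPA by more than the spread. Angpt2 was 4.16-fold above control in LL37 and 2.65-fold above control in LL37+RAPA skin (exact permutation p = 0.1 for each), and LL37 and LL37+RAPA overlapped.

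**Figure D3:**
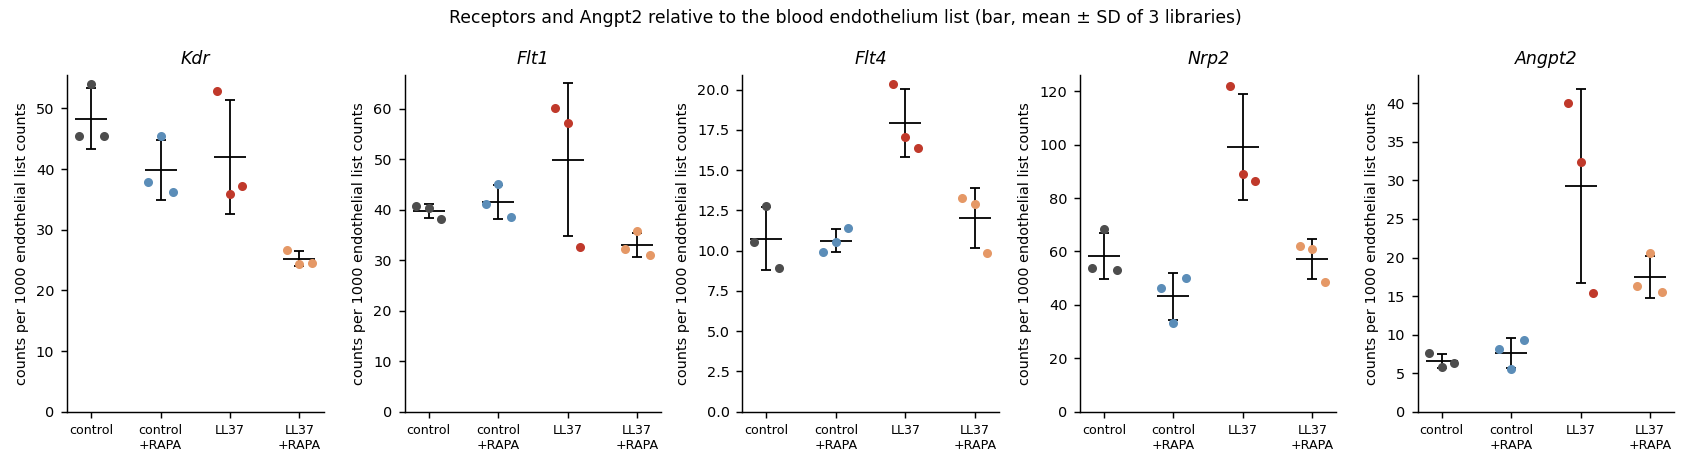
Counts of Kdr, Flt1, Flt4, Nrp2 and Angpt2 per 1000 counts of the 21 blood endothelium genes (y axis) by group (x axis). Points are libraries in order of replicate number and bars are mean ± SD of 3. Kdr is lowest in LL37+RAPA libraries (24.4 to 26.6), and Nrp2 and Flt4 are highest in LL37 libraries.

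Lymphatic markers were mostly not called against control. Of 6 listed genes 5 passed the filter, and 1, Pdpn, was higher in LL37 than in control skin (2.16, edgeR adjusted p = 0.000983). In LL37 against LL37+RAPA skin, Pdpn was higher (1.44, edgeR adjusted p = 0.0181) and Lyve1 was lower (-1.08, edgeR adjusted p = 0.0338), at 17.6 ± 3.85 CPM in LL37 and 37.3 ± 11.9 CPM in LL37+RAPA skin (SD, n = 3). Without LL37 replicate 3 the list had 1 higher and 0 lower in that comparison. Podoplanin is also made by keratinocytes and fibroblasts. Prox1, the defining factor of lymphatic endothelium, was at 1.97 ± 0.625 CPM in control and 2.25 ± 0.790 CPM in LL37 skin (SD, n = 3), with a log2 difference of 0.19, and Lyve1 stood at -0.21 against control, neither being called. Ccl21a, another lymphatic marker, was at 0.16 and 0.41 CPM and did not pass the filter.

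Genes that respond to VEGF or mark tip cells were mixed. Of 12, 3 were higher and 2 lower in LL37 than in control skin (median 0.48), and 2 were higher and 2 lower than in LL37+RAPA skin (median 0.25). Apln, the ligand of Aplnr, was at 2.18 ± 0.587 CPM in control, 36.8 ± 12.8 CPM in LL37 and 14.6 ± 4.08 CPM in LL37+RAPA skin (SD, n = 3), 16.8-fold higher than control in LL37 skin (edgeR adjusted p = 7.25e-06). Rgcc was lower than control, by 0.86 on the log2 scale (edgeR adjusted p = 0.00128), and Hlx was higher by 1.48 (edgeR adjusted p = 0.00101). Of 8 inhibitors of angiogenesis, 5 were higher and 2 lower in LL37 than in control skin (median 1.00), among them Col18a1, the source of endostatin, at 1.14 and Pf4 at 3.73, with Timp3 at -1.21.

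The hypoxia-inducible factor (HIF) pathway holds known regulators and companions of Vegfa. Of 15 listed genes without Vegfa, 10 were higher and 0 lower in LL37 than in control skin (median 0.84), and 12 were higher and 0 lower in LL37 than in LL37+RAPA skin (median 1.21). In the difference of the RAPA effects, 7 were called, all positive (median 1.18). Car9, a carbonic anhydrase and HIF target, was at 2.14 ± 0.539 CPM in control, 20.0 ± 0.985 CPM in LL37 and 3.93 ± 0.776 CPM in LL37+RAPA skin (SD, n = 3), 9.31-fold higher than control (edgeR adjusted p = 1.38e-06) and 5.06-fold higher than LL37+RAPA in LL37 skin (edgeR adjusted p = 0.000332). Egln3, a HIF prolyl hydroxylase that is itself a target, was 3.73-fold and 3.53-fold higher in the same comparisons. Hif1a was 4.11-fold and 3.06-fold higher (edgeR adjusted p = 0.000451 and 0.00526), while Epas1, which encodes HIF-2 alpha, stood at -0.06 and 0.06. The summed level was 2163 to 2639 CPM in control, 2076 to 2467 in control+RAPA, 2902 to 4113 in LL37 and 1515 to 1771 in LL37+RAPA libraries. As for Vegfa, the summed level was highest in LL37 and lowest in LL37+RAPA libraries, and LL37 replicate 3 was the lowest of its group on both measures. Counted by gene, 2 were higher and 4 lower in LL37+RAPA than in control skin (median -0.09), and Ldha, a glycolytic enzyme, had the highest CPM of the list in every group. Ldha was at 1260 ± 133 CPM in control, 1138 ± 157 CPM in LL37 and 569.6 ± 28.1 CPM in LL37+RAPA skin (SD, n = 3), 2.21-fold lower in LL37+RAPA than in control skin (edgeR adjusted p = 0.000607). Whether HIF activity has a part in the Vegfa values was not tested.

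**Figure D4:**
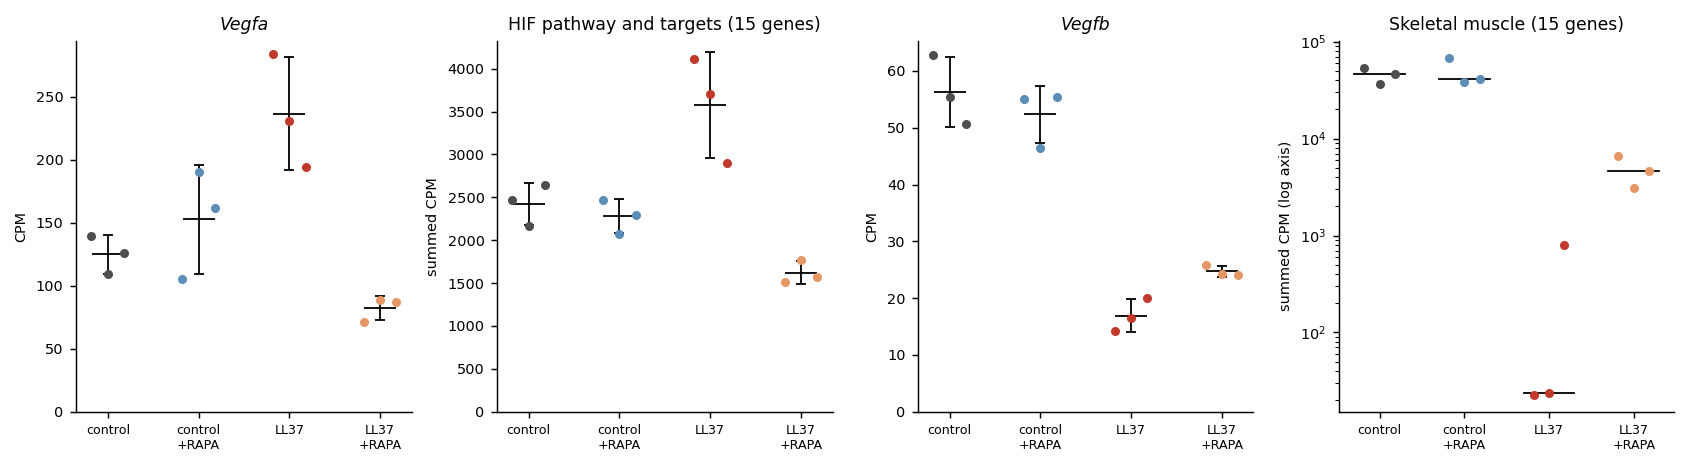
Vegfa and Vegfb in CPM, and the summed CPM of the HIF list and of the skeletal muscle list (log axis), by group. Points are libraries in order of replicate number, bars are mean ± SD of 3, and in the log panel the line is the median. Vegfa and the summed HIF list are highest in LL37 and lowest in LL37+RAPA libraries, and Vegfb and the muscle list are highest in the libraries without LL37.

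Cell type markers moved with the groups. Of 15 skeletal muscle genes 14 passed the filter, and all 14 fell against control in LL37 skin (median -7.48) and than in LL37+RAPA skin (median -3.92). Their summed level was 36513 to 53177 CPM in control, 38441 to 68422 in control+RAPA, 22.8, 23.7 and 796 in LL37 and 3069 to 6675 in LL37+RAPA libraries. Acta1, skeletal muscle actin, was at 4.30, 3.13 and 261 CPM in LL37 libraries, and at 9409 to 14778 CPM in control libraries. Ckm, muscle creatine kinase, was at 0.816, 1.47 and 34.6 CPM in LL37 libraries, against 1777 to 2727 CPM in control libraries. Replicate 3 carried most of the muscle signal left in LL37 skin, and without it the median of the list was -11.02 against control and -7.31 against LL37+RAPA skin. The order of the groups was that of Vegfb, with LL37 lowest, LL37+RAPA next and both control groups highest, and within LL37 skin replicate 3 had the highest values of both. The part of muscle in the Vegfb values was not tested. With the muscle list removed before scaling, the same numbers of the 10 genes were called in LL37 skin against control and against LL37+RAPA skin. They were 6 against control (beside 42.7% of all genes) and 3 against LL37+RAPA skin (beside 24.2%). This removal changes the scaling and not the counts of Vegfb, so it does not bear on muscle as a source of Vegfb RNA.

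All 8 adipocyte genes fell in LL37 skin against control (median -1.66) and than in LL37+RAPA skin (median -2.05). Of 10 macrophage genes, 9 were higher than control (median 1.15) and 6 higher than LL37+RAPA (median 0.71), with a summed level of 457 to 891 CPM in control, 499 to 565 in control+RAPA, 1594 to 1709 in LL37 and 933 to 1326 in LL37+RAPA libraries. Of 7 neutrophil genes 6 passed the filter, and all 6 were higher than control (median 5.53), at 1750, 2440 and 252 CPM summed in LL37 and 83.9 to 358 CPM in LL37+RAPA libraries, against at most 72.9 CPM in the 6 libraries without LL37. Of 6 keratinocyte genes, 3 were higher than control (median 0.47) and 3 higher than LL37+RAPA (median 0.57). Their summed level was 19267 to 26768 CPM in control, 26445 to 36548 in LL37 and 20572 to 22145 in LL37+RAPA libraries. The list summed to between 18503 and 36548 CPM in each of the 12 libraries, so that the labelled tissue held its defining markers. Of 7 pericyte and smooth muscle genes, 0 were higher and 1 lower (Rgs5, -0.62), and of 5 fibroblast genes 2 were higher. The part of these cells in the levels of Vegfa, Pgf and the other genes was not tested.

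LL37 replicate 3 stood apart from the other LL37 libraries, with less neutrophil and more muscle signal. Without it, 7 of the 10 genes were called in LL37 against control skin (6 higher, Flt1 being added, and Vegfb lower), 3 against LL37+RAPA skin, and 3 in the difference of the RAPA effects (Vegfa, Vegfb and Pgf). Calls over all genes rose as well, to 47.8%, 34.8% and 17.1% of genes tested, from 42.6%, 24.2% and 3.28% with all libraries. The HIF list then had 10 higher and 0 lower against control, and 11 higher and 0 lower against LL37+RAPA skin. In the difference of the RAPA effects it had 10 called, all positive. Other lists moved more. Against control, 3 of the 5 other family genes were then lower, 4 of the 21 blood endothelium genes were higher and 6 lower, and 5 of the 12 tip cell and VEGF response genes were higher. Against LL37+RAPA skin, all 5 other family genes were lower, 4 tip cell and VEGF response genes were higher and 1 lower, 5 angiogenesis inhibitors were higher and 2 lower, 3 macrophage genes were higher, and 6 of 7 neutrophil genes were higher. With all libraries, 3 of the 8 angiogenesis inhibitors were higher and 1 lower in this comparison. For neutrophil genes it was 3 higher and 0 lower of the 6 that passed the filter, which kept 7 without replicate 3.

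For 4 of the genes, those with the most similar pattern over the 12 libraries were found by the root mean square difference of centred log2 CPM. Closest to Vegfa were Slc41a1 (0.28), Il1f9 (0.29) and Maob (0.30). Closest to Vegfb were Mief2 (0.12), Mfn2 (0.14) and Ggnbp1 (0.14), of which Mief2 and Mfn2 act in the shaping of mitochondria. Closest to Kdr were Grik3 (0.16), Cul1 (0.17) and Cwf19l2 (0.17). Closest to Angpt2 were Cacna1d (0.26), Steap4 (0.28) and Nek6 (0.28).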

How the data were processed

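RNA from frozen whole skin lesions was sequenced as 1 library per mouse sample. The values are raw read counts per Ensembl gene, deposited by the authors without normalization and without pooling replicates. The submitters' processing notes name HISAT2 2.0.5, StringTie 1.3.3b, featureCounts 1.5.0-p3, DESeq2 1.16.1 and build mm10 (GRCm38), whereas the methods of the paper name HTSeq, and which of these tools made the counts was not resolved. Names, places and exon lengths are from GENCODE M21 (52403 of 52636 identifiers named) and promoter sequences from RefSeq. Libraries held 15734559 to 23271784 counts, at which 3 counts, taken as the floor, are 0.123 to 0.184 CPM, and no group of the 10 genes was near it.

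The library kit does not mark strand. Of the named list genes, Angpt1, Prox1, Hif1a, Car9, Timp3, Ckm, Itgam, Atp2a1 and others share exon bases with a neighbouring or antisense gene, so their reads are not fully separable. Groups and replicate numbers follow the labels. Counts were fitted in R 4.3.3 with edgeR 4.0.16 (TMM scaling, filterByExpr, quasi-likelihood test, all 12 libraries in 1 model, Benjamini-Hochberg adjustment over 17993 genes), and a gene was called at an adjusted p under 0.05. SE is the absolute log2 fold change over the root of F, and intervals are 95%. CPM are scaled by TMM. Ratios to the endothelial list and to Angpt1 were tested by exact permutation over libraries. The fit was tested on simulated data. Libraries of a group differed by more than sampling noise (chi-square per degree of freedom 12.7 or more), so none was counted as a duplicate, and it is not stated whether any shared a litter or a day. The sequenced samples are described as independent biological samples.

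The 10 genes and the lists were chosen with earlier results of these data known. Named genes of a list were the 2 with the smallest p in each of LL37 against control and LL37 against LL37+RAPA, beside a fixed set (Vegfd, Angpt1, Angpt4, Tek, Tie1, Pecam1, Cdh5, Prox1, Lyve1, Hif1a, Epas1, Acta1 and Ckm). Ccl21a, which failed the filter, and Ldha were named after their values were seen. The alternatives tried were a limit of 1 on the absolute log2 fold change and, as the 20 alternative fits counted in the text (19 for the difference of the RAPA effects), the test of DESeq2 1.42.0, its size factors in edgeR, scaling by library size alone or after taking out the muscle genes, filters at 1 count over all libraries or 10 in each, fitting just the compared groups, a block for the replicate number, and omission of single libraries. List counts without LL37 replicate 3 were added after seeing the data.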

Additional observations from a re-analysis of the deposited data

Results flagged for a closer look

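The effect of RAPA on Vegfa differed between LL37-injected and control skin, by a test of the difference itself. The log2 difference of the effects was 1.81 (95% interval 1.18 to 2.44, edgeR adjusted p = 0.0198). All 3 LL37+RAPA libraries held less Vegfa than all 3 LL37 libraries, whereas the control+RAPA and control libraries overlapped. The adjusted p ranged from 1.32e-06 to 0.0687 over 19 alternatives, and the call was kept in 16 of them.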

How the results depend on the processing

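The calls of Vegfa, Vegfb, Pgf, Nrp2 and Angpt2 in LL37 against control, and of Vegfa and Pgf in LL37 against LL37+RAPA, were kept in all 20 alternative fits, which do not include the limit on fold change. With a limit of 1 on the absolute log2 fold change, 3 genes were called in LL37 against control (beside 19.5% of all genes), Vegfa at 0.92, Nrp2 at 0.63 and Flt4 at 0.61 being lost. Under this limit 2 were called in LL37 against LL37+RAPA (beside 10.1%), Vegfb being lost, and 3 in LL37+RAPA against control+RAPA (beside 8.39%). A fit of the compared groups only called 7 in LL37+RAPA against control, beside 17.9% of all genes, where the fit of all groups called 4, beside 14.0%. In the difference of the RAPA effects, 2 were called with no filter on low counts (beside 3.32% of all genes), 3 by DESeq2 (Vegfa, Vegfb and Pgf, beside 10.8%), and 0 to 3 when 1 library was left out, where the share of all genes called went from 0.0108% without LL37+RAPA replicate 1 to 17.1% without LL37 replicate 3. Scaling by library size only moved the median of all genes to 0.13 in LL37+RAPA against control and to 0.18 against control+RAPA, and to -0.11 in the difference of the RAPA effects. It raised the share of higher calls from 35.8% to 61.3% and from 44.2% to 72.5% in the first 2, and lowered it from 34.4% to 21.0% in the third. In LL37 against control it went from 49.3% to 58.9%. Under it Flt1 stood at 0.14 in LL37+RAPA against control+RAPA and Kdr at -0.056 in the difference of the RAPA effects, both with the sign turned and not called. Scaling by library size only leaves out the TMM factors. These were 1.05 to 1.08 in LL37+RAPA, 0.959 to 0.994 in control and 0.896 to 0.956 in control+RAPA libraries. Why the factors differ between groups was not tested.

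Leaving out 1 library turned the sign of values near 0 that were not called. In LL37 against control, Flt1 ranged from -0.042 to 0.53 and Nrp1 from -0.46 to 0.092. In LL37 against LL37+RAPA, Flt1 ranged from -0.31 to 0.26, Kdr from -0.024 to 0.21, Flt4 from -0.18 to 0.063 and Angpt2 from -0.14 to 0.46. In control+RAPA against control, Kdr ranged from -0.34 to 0.11 and Nrp1 from -0.35 to 0.14. In LL37+RAPA against control+RAPA, Vegfc ranged from -0.037 to 0.43 and Flt1 from -0.17 to 0.20. In the difference of the RAPA effects, Flt1 ranged from -0.027 to 0.55, Kdr from -0.27 to 0.18, Flt4 from -0.018 to 0.29 and Nrp2 from -0.25 to 0.048. Per endothelial count, Nrp1 ranged from -0.40 to 0.11 in LL37 against control and from -0.13 to 0.38 in LL37 against LL37+RAPA, and Nrp2 from -0.10 to 0.087 in LL37+RAPA against control.

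With the replicate number as a replicate block, 6, 3, 4, 0, 5 and 1 of the 10 genes were called in LL37 against control, LL37 against LL37+RAPA, LL37+RAPA against control, control+RAPA against control, LL37+RAPA against control+RAPA and the difference of the RAPA effects, the same counts as without it. The shares of all genes called with the block were 41.3%, 21.5%, 12.4%, 0%, 17.0% and 1.28% in that order. In the difference of the RAPA effects the share without the block was 3.28%. Deviations of same-numbered libraries correlated at -0.19 to 0.26 over 18 pairs, with 4 over 0.1, and 5 of 12 libraries went best with their own number, so the numbers were not taken as pairs. Vegfc, with 33 to 105 counts per library, was the gene most limited by depth.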
